A study of Bos taurus with 111 samples.

Results

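Skeletal muscle of Charolais (CH) steers was compared between 2 feeding phases of their growing stage, a high concentrate phase (H1) and the zero-grazed grass phase (ZG) that came after it. The libraries were chosen by the breed, diet and residual feed intake (RFI) labels of each sample, where RFI is the feed an animal eats beyond what its growth and size predict, so that low RFI (L-RFI) steers are efficient and high RFI (H-RFI) steers are inefficient. Of the 111 libraries in the series, 37 were CH libraries of H1 or ZG, and 35 of these were used. The H1 group held 18 libraries (10 H-RFI and 8 L-RFI) and the ZG group 17 (8 H-RFI and 9 L-RFI). They came from 30 steers, 5 of which had a library in both phases. In H1 the steers had free access to concentrates of which rolled barley made up 860 g/kg, the rest being soya bean meal and molasses (60 g/kg of each) with vitamins and minerals, with a limited daily amount of grass silage. In ZG they had free access to freshly cut grass, mostly Lolium perenne. Both phases lasted 70 days, and biopsies of M. longissimus thoracis et lumborum, the loin muscle, were taken when each ended. Per the labels, the CH steers averaged 283 days of age (SD 18.3) and 395 kg (SD 37.8) at the start of H1, and 519 kg (SD 38.3) at the start of phase 3, which is the number the sample titles give to ZG. Diet, age and body weight therefore changed together and cannot be told apart in any comparison of the phases. RFI class was assigned anew in each phase among animals ranked within breed and diet, so these are the extremes of the herd and not a random sample of it.

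As background, skeletal muscle burns glucose and fatty acids in proportions that follow the supply from the diet. Grass rich in fibre is fermented largely to acetate, while barley starch yields more propionate, the main precursor of glucose in ruminants. Muscle also holds a class of immediate early genes, such as FOS, JUN and the NR4A receptors, whose transcripts rise within minutes to hours of contraction, stress hormones, growth factors or tissue handling and then decay. Lipid droplet proteins coat the fat stores inside the fibre and control how fast their fatty acids are released.

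The H1 libraries held 8301679 to 52552057 gene counts and the ZG libraries 4534891 to 33640376, a mean ZG minus H1 difference of -0.069 in log10 counts (two-sided permutation test, p = 0.403, n = 18 and 17). Levels are given as counts per 1000000 (CPM) after scaling by trimmed mean of M-values (TMM) factors. Before that scaling, a count of 3 was worth 0.175 CPM in the library of median depth and 0.662 CPM in the shallowest one. This is a floor for counting error alone. The shallowest library, of steer 1843, had a factor of 0.567 over all libraries together, so 3 counts were worth more there on the scale of the levels. The 2 CH libraries left out were an L-RFI ZG library with 4019 counts and the H-RFI ZG library of steer 571. The latter held 164200 CPM summed over 11 liver plasma protein genes, against at most 758 CPM in any library used. None of the 16 muscle fibre markers listed for the tissue check could be tied to an identifier. Among striated muscle genes that could, CSRP3 (muscle LIM protein) ranged from 38.8 to 523.5 CPM and MYH6, the alpha cardiac myosin heavy chain, from 97.7 to 1066 CPM over the 35 libraries. The libraries also differed in composition. The first principal component held 59.5% of the variance, and the TMM factor ranged from 0.805 to 1.57 in H1 (median 1.15) and from 0.519 to 1.43 in ZG (median 0.949). It lay under 0.7 in 5 ZG libraries (steers 1492, 1843, 1834, 1831 and 545) and in 0 H1 libraries. The same 5 libraries held MT-CO3, a mitochondrially encoded subunit of cytochrome c oxidase, at 43440 to 71680 CPM, against 7206 to 43630 CPM in the other 12 ZG libraries.

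The first question was which genes differed between the concentrate and the grass phase. Of 10136 genes tested with limma voom, RFI class as a covariate and the steer as a random block, 213 (2.10%) were called, which here means a fold change above 1.5 and a p-value under 0.1 after Benjamini-Hochberg adjustment. They comprised 114 genes higher in ZG (1.12% of those tested) and 99 lower in ZG (0.977%). A gene name could be tied to 111 of the genes tested, and 12 of these were called, all 12 higher in ZG. The other 201 called genes had no name in the sources used here. The named genes are a selected set, since the only table pairing identifiers with names is the study's list of genes differing in these same samples. Of the 21 tested genes that the study named for an interaction of diet and breed, 10 were called here, and of the 90 other named genes 2 were (CSRNP1 and ATG101). Neither count is independent evidence of a direction. The number of calls also rested on single libraries, with 102 to 641 genes called when each of the 35 libraries was left out in turn, and 21 called with the library of steer 571 kept.

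The gene with the smallest p-value among the named genes was KLF11 (ENSBTAG00000046218), a Kruppel-like zinc finger transcription factor that acts downstream of transforming growth factor beta. Its level ranged from 3.73 to 15.96 CPM in H1 (median 9.94, n = 18) and from 9.34 to 35.2 CPM in ZG (median 21.9, n = 17). The groups overlapped, but 12 of 17 ZG libraries lay above the highest H1 library and 16 of 17 above the H1 median. KLF11 was higher in ZG by 1.22 on the log2 scale (standard error 0.19, limma voom, adjusted p = 0.000301), a 2.33-fold difference. It was called in 35 of 35 fits that left out a library, with differences from 1.13 to 1.28. With the library of steer 571 kept it was the sole gene of the 12 still called (1.26, adjusted p = 0.000785).

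PLIN5 (ENSBTAG00000038464), the perilipin that coats lipid droplets in oxidative tissues and ties them to mitochondria, ranged from 3.85 to 15.1 CPM in H1 (median 9.46) and from 9.52 to 37.4 CPM in ZG (median 17.1). All 17 ZG libraries exceeded the H1 median and 10 exceeded the highest H1 library. The difference was 0.86 on the log2 scale (standard error 0.18, limma voom, adjusted p = 0.0119), or 1.82-fold. Its highest ZG value belonged to steer 1843, one of the libraries with a TMM factor under 0.7. Without those 5 libraries the difference was 0.75 and still called (adjusted p = 0.0687).

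Among the other called genes with a name, ANGPTL2, a secreted angiopoietin-like protein, ranged from 7.45 to 33.5 CPM in H1 (median 12.3) and from 8.19 to 52.7 CPM in ZG (median 21.4). Its difference of 0.64 (standard error 0.20, limma voom, adjusted p = 0.0867) was called in 13 of 35 fits that left out a library. ATG101, a subunit of the kinase complex that starts autophagy, ranged from 13.6 to 37.0 CPM in H1 (median 27.7) and from 24.0 to 90.4 CPM in ZG (median 40.9). It was higher by 0.67 (standard error 0.17, limma voom, adjusted p = 0.0336), with 10 of 17 ZG libraries above the highest H1 library. Both genes moved with the composition of the libraries. ANGPTL2 had a median of 31.5 CPM in the 5 ZG libraries with a factor under 0.7 and 20.7 CPM in the other 12, and ATG101 had 58.0 and 34.1 CPM. With the TMM factor as a covariate ANGPTL2 was at 0.33 (limma voom, adjusted p = 0.241) and ATG101 at 0.44 (adjusted p = 0.104), so neither was called. The part of composition in the other differences was not tested beyond these fits.

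**Figure D1:**
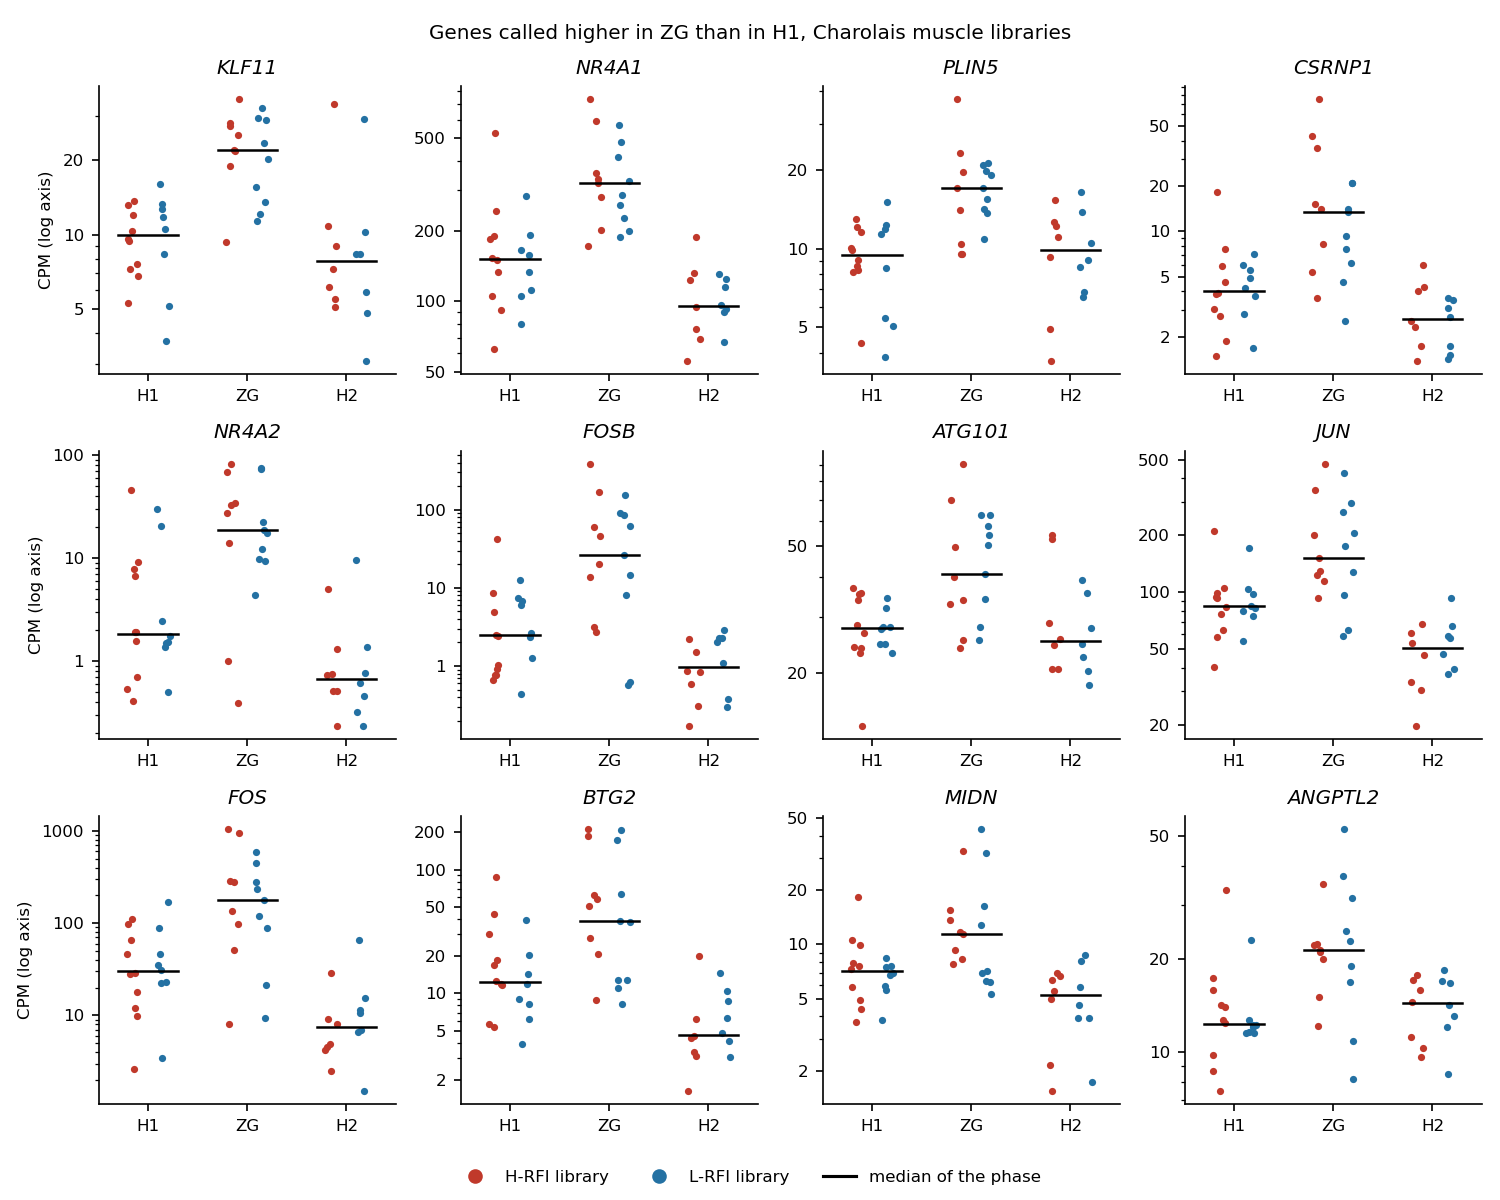
Level of the 12 called genes with a name, in CPM on log axes, in each CH library of H1 (18), ZG (17) and H2 (14), with H-RFI libraries in red, L-RFI libraries in blue and a bar at the median of the phase. Every ZG median lies above the H1 median, and for KLF11 12 of 17 ZG libraries lie above the highest H1 library.

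Immediate early genes made up most of the other named calls. Of the 18 members of that list, all of which passed the filter, 9 were called higher in ZG and 0 lower, and 17 had a difference above 0. The median difference of the list was 0.95 on the log2 scale, against 0.20 for the 111 named genes and -0.038 for all 10136 genes. Of the 111 named genes, 72 were above 0 and 12 were called. KLF11, described above, is among the 9. Of the 18, 14 are on the study's list for diet and breed, which was drawn from these samples. All 21 tested genes of that list were above 0, with a median of 0.76, and the 90 other named genes had a median of 0.082. The shift of the immediate early genes is therefore not independent evidence of a direction.

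NR4A1, an orphan nuclear receptor induced in muscle by contraction and adrenaline, was the member with the next smallest p-value. It ranged from 62.2 to 525.1 CPM in H1 (median 152.1) and from 172.4 to 737.2 CPM in ZG (median 322.1). All 17 ZG libraries exceeded the H1 median, whereas 3 exceeded the highest H1 library, which was that of H-RFI steer 1320. The difference was 1.15 on the log2 scale (95% confidence interval 0.69 to 1.61, limma voom, adjusted p = 0.00641). NR4A2, a related receptor, ranged more widely, from 0.405 to 45.9 CPM in H1 (median 1.83) and from 0.389 to 81.4 CPM in ZG (median 18.7). It was higher in ZG by 2.69 (95% confidence interval 1.36 to 4.02, adjusted p = 0.0293), and by 1.98 with edgeR and 1.95 with DESeq2 (adjusted p = 0.0552 and 0.0233). The lowest library of all 35 was a ZG library, but its 0.389 CPM was near the counting floor and close to the lowest H1 value.

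FOS and FOSB encode partners of JUN in the AP-1 transcription factor. FOS ranged from 2.65 to 170.3 CPM in H1 (median 30.2) and from 8.17 to 1043 CPM in ZG (median 179.3), and 9 of 17 ZG libraries lay above the highest H1 library. FOSB had the largest difference of the named genes, 3.21 on the log2 scale with a 95% confidence interval from 1.59 to 4.84 (limma voom, adjusted p = 0.0325). Its ZG libraries ranged from 0.564 to 383.3 CPM (median 26.1) and its H1 libraries from 0.438 to 42.6 CPM (median 2.46), so that 1 H1 library lay below the lowest ZG library. FOS differed by 2.35 (95% confidence interval 1.10 to 3.61, adjusted p = 0.0452). JUN spanned a narrower range, from 40.5 to 210.4 CPM in H1 (median 84.5) and from 58.7 to 474.7 CPM in ZG (median 151.8). It was higher by 0.98 (95% confidence interval 0.48 to 1.48, adjusted p = 0.0350).

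The remaining called members were BTG2, which restrains proliferation and speeds removal of messenger RNA tails, CSRNP1, a nuclear protein induced by many of the same stimuli, and MIDN, which carries short-lived nuclear proteins to the proteasome. BTG2 had a median of 12.3 CPM in H1 and 38.5 CPM in ZG and differed by 1.68 (standard error 0.47, limma voom, adjusted p = 0.0557). CSRNP1 had medians of 4.05 and 13.4 CPM and differed by 1.60 (standard error 0.38, adjusted p = 0.0255). MIDN had medians of 7.16 and 11.4 CPM and differed by 0.91 (standard error 0.26, adjusted p = 0.0561). The groups overlapped for all of them, with 4, 5 and 3 of 17 ZG libraries above the highest H1 library. The 9 members that were not called had differences from -0.21 for NFKBIA, the inhibitor of NF-kappa-B, to 1.38 for NR4A3. They included JUNB at 0.76, EGR1 at 0.84 and ZFP36, a destabilizer of AU-rich messages, at 0.65 (limma voom, adjusted p = 0.255, 0.254 and 0.119).

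No named gene was called lower in ZG by limma voom, and the 6 with the smallest p-values in that direction are given by their values. GADD45A, which responds to DNA damage and to loss of the nerve in muscle, had a median of 10.8 CPM in H1 and 5.74 CPM in ZG, a difference of -0.89 (standard error 0.29, limma voom, adjusted p = 0.101). BDP1, a subunit of the initiation factor of RNA polymerase III, had medians of 5.21 and 1.88 CPM and a difference of -1.29 (adjusted p = 0.103). ROCK2 had medians of 23.2 and 10.4 CPM and a difference of -0.92 (adjusted p = 0.118). NTN4, a secreted netrin, RESF1, which silences retroelements, and CTSS, a lysosomal protease of antigen-presenting cells, differed by -0.96, -1.15 and -0.81 (adjusted p = 0.149, 0.151 and 0.163). GADD45A, BDP1 and ROCK2 were called lower with edgeR (adjusted p = 0.0647, 0.0607 and 0.0576) and with DESeq2 (adjusted p = 0.0308, 0.0210 and 0.0226), and in 18, 17 and 10 of all 58 alternatives.

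Levels of these genes differed with the composition of the libraries. In the 5 ZG libraries with a TMM factor under 0.7, ROCK2 lay between 2.33 and 6.53 CPM, below the lowest H1 library at 6.77 CPM, whereas in the other 12 ZG libraries it lay between 5.03 and 28.5 CPM. RESF1 was at most 0.321 CPM in those 5 libraries, near the counting floor, and at least 1.08 CPM in the other 12. The libraries of steers 1843, 1492 and 1834, among the 5, were also the shallowest of ZG, with 4534891, 6402100 and 7114334 gene counts. With the TMM factor as a covariate, a setting chosen after seeing the data, the differences of GADD45A, BDP1, ROCK2 and NTN4 were -0.39, -0.28, -0.19 and -0.14, and those of RESF1 and CTSS were 0.11 and 0.061, above 0. KLF11 was also lower in the 5 libraries, with a median of 13.6 CPM against 26.4 CPM in the other 12, and its difference was 1.37 with the covariate (limma voom, adjusted p = 2.99e-05). Under the same covariate 10 of the 12 called genes stayed called, and without the 5 libraries 8 did. Of the other 4, JUN was at 0.98 and CSRNP1 at 1.41 (limma voom, adjusted p = 0.112 and 0.126), and ATG101 and ANGPTL2 were at 0.46 and 0.44 (adjusted p = 0.300 and 0.401). Over all genes 176 were called with the covariate (103 higher and 73 lower), of which 50 were among the 213. Without the 5 libraries 48 were called, of which 41 were among the 213.

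**Figure D2:**
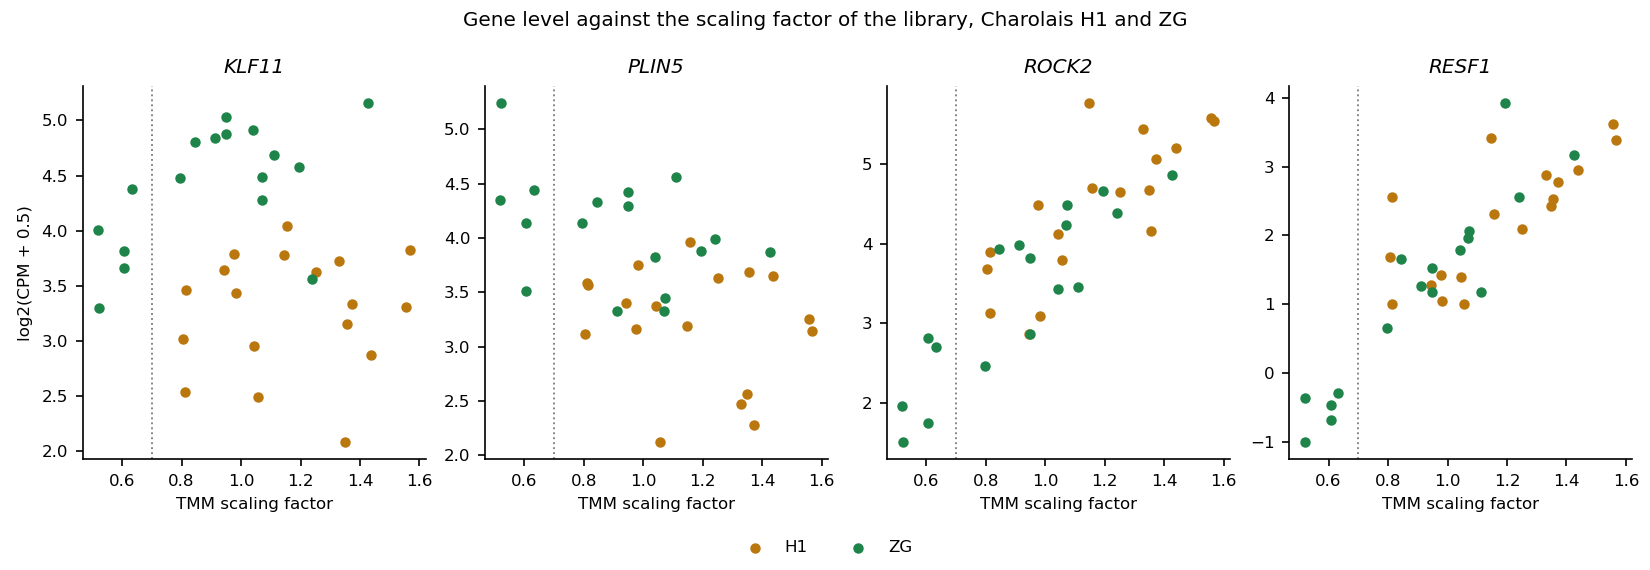
Level of KLF11, PLIN5, ROCK2 and RESF1 as log2(CPM + 0.5) against the TMM scaling factor of each CH library, with 18 H1 libraries in orange, 17 ZG libraries in green and a dotted line at a factor of 0.7. The 5 ZG libraries left of the line hold ROCK2 at 2.33 to 6.53 CPM and RESF1 at no more than 0.321 CPM, while KLF11 is higher in ZG than in H1 to the right of it as well.

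Of the called genes without a name, the 2 with the smallest p-values in each direction are given by identifier. ENSBTAG00000010125 ranged from 34.2 to 54.4 CPM in H1 (median 44.6) and from 53.0 to 105.3 CPM in ZG (median 68.2). Among these 4 genes its groups overlapped least, with 15 of 17 ZG libraries above the highest H1 library, and differed by 0.61 (standard error 0.091, limma voom, adjusted p = 0.000301). ENSBTAG00000019327, at 776.8 to 2353 CPM in H1 and 1641 to 4634 CPM in ZG, was higher by 1.01 (standard error 0.15, adjusted p = 0.000301). In the other direction, ENSBTAG00000039582 fell from a median of 8.71 CPM to 4.31 CPM, with 12 of 17 ZG libraries below the lowest H1 library, a difference of -0.95 (standard error 0.14, adjusted p = 0.000301). ENSBTAG00000037858 fell from a median of 2.48 to 0.900 CPM, a difference of -1.34 (standard error 0.24, adjusted p = 0.00385). What these genes encode could not be read from the sources used here.

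Apart from the immediate early genes, the gene lists compared held few calls, and each rests on the few members that could be named. Of 5 genes of fatty acid uptake and oxidation, PLIN5 was called and the median difference was 0.58. PDK4, the kinase that shuts pyruvate dehydrogenase when fat is burnt, ranged from 14.2 to 425.7 CPM in H1 (median 56.5) and from 18.1 to 950.7 CPM in ZG (median 129.4). Its difference of 0.96 was not called (standard error 0.48, limma voom, adjusted p = 0.224), and it was 1.88 and called with the TMM factor as a covariate (adjusted p = 0.0111). Without the 5 libraries with a factor under 0.7 it was 1.54 and not called (limma voom, adjusted p = 0.185). Nor was PDK4 called with edgeR or DESeq2 (1.07 and 1.05, adjusted p = 0.151 and 0.108), and 2 of 58 alternatives called it. SLC27A6, a fatty acid transporter, BDH1, an enzyme of ketone body use, and ACSM1, which activates medium-chain fatty acids, were at -0.89, -0.46 and 0.58 and were not called. SLC27A6 and BDH1 were at -0.21 and -0.29 with the TMM factor as a covariate.

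Genes of fat storage showed no call. FASN, the fatty acid synthase, had medians of 35.7 CPM in H1 and 39.2 CPM in ZG and a difference of 0.40 (standard error 0.23, limma voom, adjusted p = 0.281). Its difference was 0.018 with the TMM factor as a covariate. THRSP, a regulator of lipogenesis, was at -0.47 with a standard error of 0.60, and it was above 0 with edgeR and DESeq2 (0.29 and 0.18). Of the adipocyte genes, CIDEC, a lipid droplet protein, TRARG1, a regulator of glucose transporter traffic, and FABP4, the adipocyte fatty acid binding protein, were at 0.30, 0.33 and -0.023, each within its standard error of 0 (0.54, 0.52 and 0.65). Summed over 4 adipocyte markers, of which 3 passed the filter, levels ranged from 1.38 to 16.6 CPM in H1 and from 0.551 to 55.4 CPM in ZG. In bulk tissue, fewer cells of a type and less RNA per cell cannot be told apart.

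Contractile and mitochondrial genes held 0 calls in the limma voom fit as well. Of the slow fibre list, MYH6 and CSRP3 were at 0.38 and 0.41, and phospholamban (PLN) and the light chain MYL6B at -0.49 and -0.37. MYH6 and PLN changed sign with the TMM factor as a covariate (-0.12 and 0.55), and CSRP3 and MYL6B did not (0.49 and -0.63). MYH4, a fast myosin heavy chain, had medians of 3.91 CPM in H1 and 3.71 CPM in ZG, and single libraries reached 183.9 CPM in H1 (steer 1101) and 46.2 CPM in ZG (steer 318). Its difference was -0.93 (limma voom, adjusted p = 0.357), but it was called lower in ZG with edgeR and DESeq2 (-2.30 and -2.34, adjusted p = 0.0531 and 0.00626). Of the developmental and denervation genes, cardiac actin (ACTC1) was at -0.74 (limma voom, adjusted p = 0.173). It was called lower with edgeR, DESeq2 and the TMM factor as a covariate (-0.87, -0.88 and -1.02, adjusted p = 0.0923, 0.0430 and 0.0373). In the same list the perinatal myosin MYH8, the cardiac troponin TNNT2 and the acetylcholine receptor subunit CHRND were at 0.70, -0.24 and 0.23. The mitochondrial transcripts MT-ND3 and MT-CO3 were at 0.66 and 0.46 and followed the library composition given above, so that both were below 0 with the TMM factor as a covariate (-0.23 and -0.40). NDUFA3, a nuclear subunit of complex I, was at 0.032, and with that covariate it was called lower at -0.61 (limma voom, adjusted p = 0.0210).

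Genes of protein turnover and growth signalling were split. DDIT4, an inhibitor of the growth kinase mTORC1, had medians of 140.1 and 207.3 CPM and a difference of 0.62 that missed the threshold (standard error 0.21, limma voom, adjusted p = 0.106). It was called in 5 of the settings other than leaving out a library. CEBPD, a stress-responsive transcription factor, was at 0.56 (adjusted p = 0.160) and FOXO1, a driver of muscle atrophy genes, at 0.13. CEBPD was called higher with edgeR and DESeq2 (0.65 and 0.63, adjusted p = 0.0749 and 0.0466), the 2 of 58 alternatives that called it. CISH, an inhibitor of cytokine and growth hormone signalling, and INHA, the inhibin alpha chain, were at 0.66 and -0.37. The matrix genes CD248, a marker of fibroblasts and pericytes, and CCN2, a connective tissue growth factor, were at 0.47 and -0.099. Both were below 0 with the TMM factor as a covariate (-0.066 and -0.13).

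Markers of other cell types were measured beside these genes. The 4 interferon response genes were all below 0, with a median of -0.54 and 0 calls (IDO1 -0.85, CASP4 -0.61, MX1 -0.47 and IFIT3 -0.40). Once the TMM factor was a covariate, IDO1, MX1 and IFIT3 were at -0.31, -0.37 and -0.16, and CASP4 was at 0.022. The lymphoid genes PTPRC, which encodes the leukocyte antigen CD45, and CD3E were at -0.51 and 0.13, and the myeloid genes PLEK, LCP1 and CTSS at 0.20, -0.073 and -0.81. With that covariate they were at 0.18, 0.18, 0.22, 0.20 and 0.061 in the same order. PTPRC was at 0.43 with edgeR and -0.53 with DESeq2. Summed over 8 myeloid markers, of which 3 passed the filter, levels ranged from 7.78 to 36.5 CPM in H1 (median 14.3) and from 4.67 to 58.9 CPM in ZG (median 8.90). Over 6 lymphoid markers the medians were 7.65 and 3.68 CPM, and the highest sums were 14.7 CPM in H1 and 42.9 CPM in ZG. How far these sums followed the TMM factor was not tested. The endothelial genes APOLD1 and SOX18 were at -0.22 and 0.16, and at 0.33 and -0.10 with the TMM factor as a covariate. The liver plasma protein genes, 10 of which were tested, had differences from -0.21 to 0.15 with a median of 0.0075, and their sum had medians of 92.0 CPM in H1 and 97.0 CPM in ZG. HBD, the single red blood cell marker with an identifier, was at 0 in all 35 libraries. The antioxidant gene GSTM3 was at 0.20 and the potassium channel subunit KCNE5 at -0.12, and neither was called in the main fit. With the TMM factor as a covariate KCNE5 was called lower at -1.07 (limma voom, adjusted p = 0.0798). Its medians were low, at 1.27 CPM in H1 and 0.883 CPM in ZG. No listed gene of cholesterol synthesis, glycolysis, heat shock, the clock or proliferation could be tied to an identifier.

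**Figure D3:**
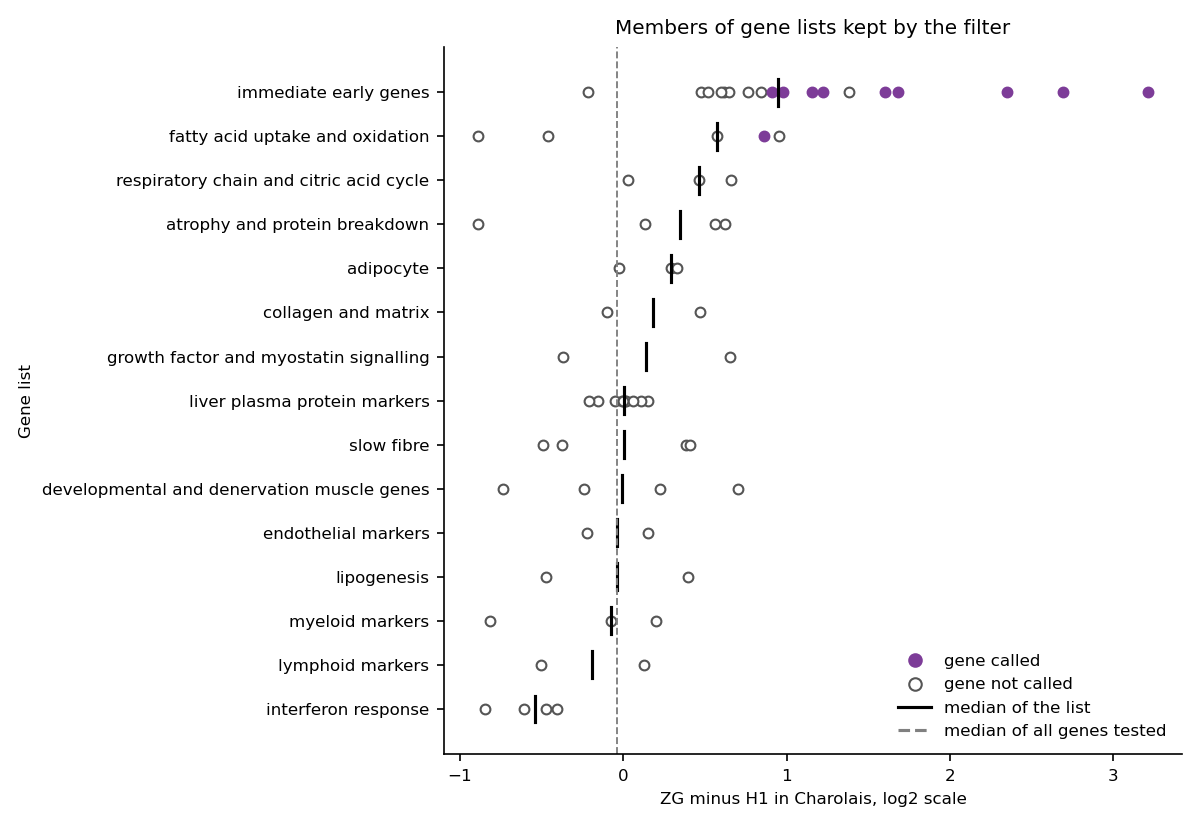
ZG minus H1 difference on the log2 scale of the named genes that passed the filter, for each gene list with 2 or more of them, with called genes filled, a black bar at the median of the list and a dashed line at the median of all 10136 genes (-0.038). Calls are seen in the immediate early genes (9 of 18) and in fatty acid uptake and oxidation (1 of 5). The 111 named genes, a selected set, had a median of 0.20.

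The next question was whether the change was shared with Holstein-Friesian (HF) steers, a dairy breed that went through the same phases in the same study. The same model in 39 HF libraries (20 of H1 and 19 of ZG) called 59 genes higher in ZG (0.552% of 10686 tested) and 33 lower (0.309%). Of the genes called higher, 17 were called in both breeds, which is 14.9% of the CH genes and 28.8% of the HF genes, and of those called lower, 11 were (11.1% and 33.3%). All 12 named genes called in CH had a difference above 0 in HF, and 4 were called there.

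KLF11 showed a difference of 1.10 in HF (standard error 0.15, limma voom, adjusted p = 0.000134), with medians of 10.4 CPM in H1 and 21.7 CPM in ZG, close to the CH medians of 9.94 and 21.9 CPM. PLIN5 was higher by 0.91 in HF (standard error 0.18, adjusted p = 0.00463), from a median of 9.50 to 17.4 CPM. ANGPTL2 was higher by 0.87 (adjusted p = 0.00456) and NR4A2 by 1.90 (adjusted p = 0.0997). The other 7 called immediate early genes of CH were not called in HF, among them FOS at 1.64, JUN at 0.67, NR4A1 at 0.53 and FOSB at 0.94 (adjusted p = 0.165, 0.165, 0.489 and 0.718). Of the 18 immediate early genes, a selected set, 5 were called higher in HF and 0 lower, with a median difference of 0.61. They included JUNB at 1.43, CCN1 at 0.88 and ZFP36 at 0.67 (limma voom, adjusted p = 0.0190, 0.0143 and 0.0901), which were not called in CH.

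That a gene was called in CH and not in HF does not show a difference between the breeds, which was tested in a joint model of 74 libraries. It called 0 of 10469 genes (0%). Before adjustment 522 genes had a p-value under 0.05 in limma voom, where the smallest adjusted value was 0.348, and 434 did in edgeR's quasi-likelihood test, which called 0 as well. The HF change minus the CH change was -0.14 for KLF11 (standard error 0.23) and 0.11 for PLIN5 (standard error 0.25). It was -0.47 for NR4A1 (standard error 0.38), -0.43 for FOS (95% confidence interval -2.09 to 1.23) and -1.66 for FOSB (95% confidence interval -3.85 to 0.53). Of the 12 genes, all but CSRNP1 and ATG101 are on the study's own list for diet and breed. That list came from a model of all the study's data, the later finishing phase included. The joint model here held H1 and ZG libraries alone, so they are unlike tests.

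**Figure D4:**
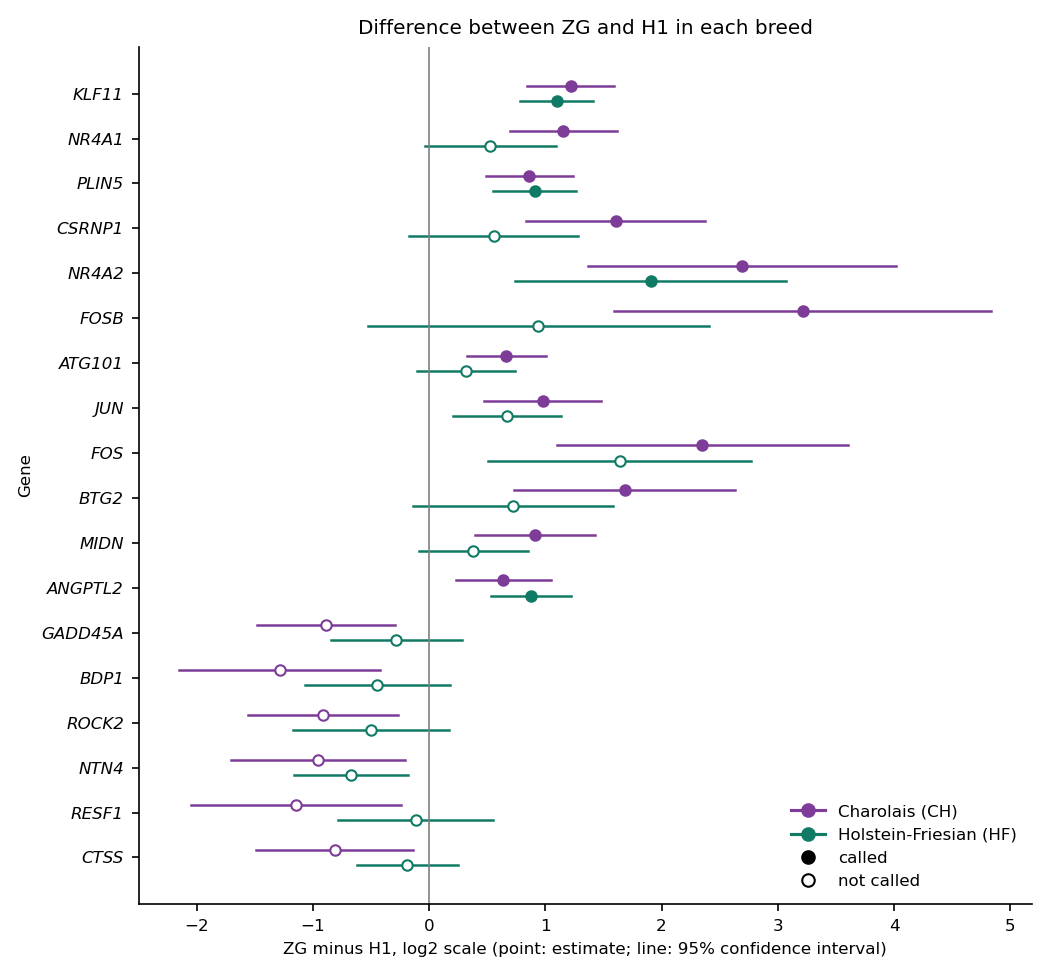
ZG minus H1 difference on the log2 scale (point) with its 95% confidence interval (line) in CH (purple) and HF (green) for the 12 called named genes and the 6 named genes of smallest p below 0, with filled points for called genes. The CH and HF intervals overlap for all 18 genes, and KLF11, PLIN5, NR4A2 and ANGPTL2 are filled in both breeds.

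Whether the phase difference depended on feed efficiency was tested as the interaction of phase and RFI class in the 35 CH libraries. It called 0 of 10136 genes (0%). Before adjustment 73 genes had a p-value under 0.05 in limma voom and 84 in edgeR's quasi-likelihood test, which also called 0. The L-RFI change minus the H-RFI change was -0.20 for KLF11 (standard error 0.37), 0.24 for PLIN5 (standard error 0.37) and -0.00044 for NR4A1 (standard error 0.46). For FOS and FOSB it was -0.56 and -1.51 with standard errors of 1.24 and 1.58. Fitted alone, the classes called 0 genes each, with 621 at an unadjusted p-value under 0.05 in H-RFI and 1039 in L-RFI (limma voom). The KLF11 difference was 1.30 in H-RFI (adjusted p = 0.107) and 1.09 in L-RFI (adjusted p = 0.427).

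The 5 steers with a library in both phases allowed a look within animals. Of these, 1 (steer 1816) was L-RFI in H1 and H-RFI in ZG. KLF11 was higher in ZG in 5 of 5 steers, from 6.82 to 27.4 CPM in steer 307, 12.0 to 21.9 CPM in steer 449, 13.3 to 32.3 CPM in steer 1100, 8.38 to 18.9 CPM in steer 1816 and 3.73 to 13.6 CPM in steer 1831. NR4A1, NR4A2, PLIN5, ANGPTL2, JUN, FOS and BTG2 were each higher in 4 of 5, and the steer that went against the rest was not the same for all of them. PLIN5 fell in steer 1816, from 12.4 to 9.52 CPM, and FOS in steer 1100, from 22.6 to 9.35 CPM. FOSB, ATG101 and MIDN were higher in 3 of 5 and CSRNP1 in 2 of 5. A fit of these 5 pairs alone used edgeR's quasi-likelihood test with the steer as a fixed block. It called 0 genes (223 had a p-value under 0.05 before adjustment) and gave a KLF11 difference of 1.44 (edgeR, adjusted p = 0.882).

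**Figure D5:**
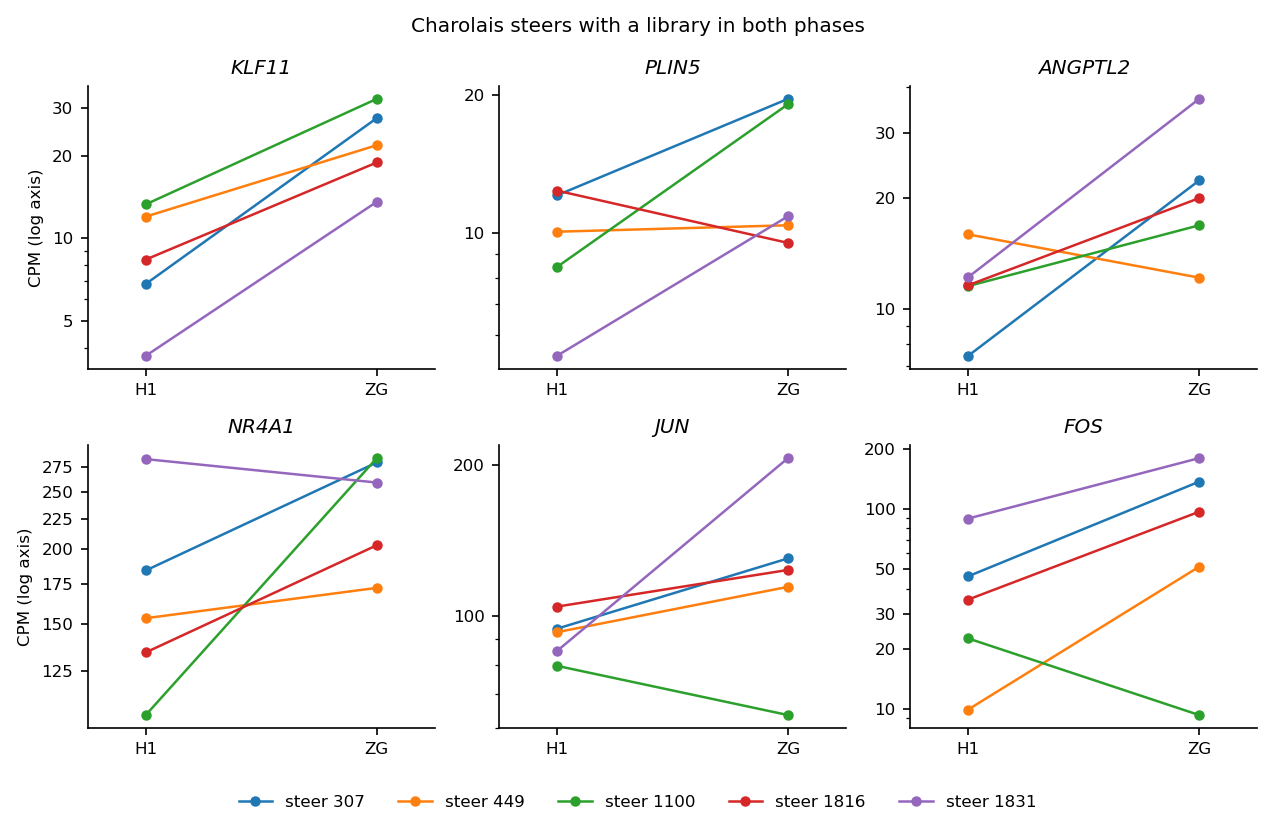
Level in CPM on log axes of KLF11, PLIN5, ANGPTL2, NR4A1, JUN and FOS in H1 and in ZG of the 5 CH steers with both libraries, each steer a line. KLF11 rises in 5 of 5 steers and the other 5 genes in 4 of 5.

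The levels in the later finishing phase, when the steers were again on concentrates (H2), are set beside these without a test, since the steers were older and heavier then. In 14 CH libraries of H2, KLF11 had a median of 7.80 CPM, below the ZG median of 21.9 CPM, and ranged from 3.08 to 33.7 CPM, so that single H2 libraries were as high as ZG. PLIN5 had a median of 9.88 CPM in H2 and ANGPTL2 of 14.3 CPM, against 17.1 and 21.4 CPM in ZG. The H2 medians of the 9 called immediate early genes were below those of H1 as well as ZG. NR4A1 was at 95.7 CPM in H2, 152.1 CPM in H1 and 322.1 CPM in ZG, and FOS at 7.51, 30.2 and 179.3 CPM. PDK4 followed the same order, at 11.6, 56.5 and 129.4 CPM.

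Within a phase, FOS was compared with 3 other immediate early genes and with PLIN5 from steer to steer. Across the 17 ZG libraries, log2(CPM + 0.5) of FOS and FOSB had a Pearson r of 0.90 and a Spearman rho of 0.90 (permutation tests, p = 1e-05 for each, the smallest that the permutations can give, adjusted p = 0.00012 over 12 relations). The r was 0.89 without the 2 libraries farthest from the FOS median, and 0.74 across the 18 H1 libraries (permutation test, p = 0.00036, adjusted p = 0.00152). FOS and NR4A1 had an r of 0.75 and a rho of 0.79 in H1 (permutation tests, adjusted p = 0.00152 and 0.00108), with an r of 0.60 without the 2 farthest libraries. In ZG their r was 0.56 and their rho 0.59 (permutation tests, adjusted p = 0.0615 and 0.0412), with an r of 0.80 without the 2 farthest. No relation of KLF11 or PLIN5 with FOS, with each other or of KLF11 with PDK4 passed an adjusted p-value of 0.1. The r of FOS with KLF11 was -0.45 in H1 and 0.024 in ZG (permutation tests, adjusted p = 0.146 and 0.926), and that of KLF11 with PLIN5 was 0.32 in H1 and -0.25 in ZG (adjusted p = 0.319 and 0.367).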

How the data were processed

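The deposited values are raw counts of reads per Ensembl gene, which the authors made with STAR 2.5.1 (GeneCounts mode) after trimming with cutadapt. Per the study's methods the genome was ARS-UCD1.2 with Ensembl release 87, while the submitters' processing notes name UMD3.1, so no coordinates are given. Reverse-strand counts were used, since they held 98.5% to 99.3% of the stranded counts in these libraries. Libraries under 1000000 counts and that of steer 571 were left out, and the filter, as in the study, kept genes reaching 1 CPM in 50% or more of the libraries. TMM factors, limma voom and duplicateCorrelation (run 2 times, the steer as block, consensus correlation -0.195) gave the tests, and called genes passed the study's thresholds, a fold change above 1.5 and an adjusted p-value under 0.1. The steer number in the labels pairs libraries of the same animal. A correlation below 0 treats libraries of the same steer as less alike than those of different steers, and in the HF fit it was 0.456. CPM levels use TMM factors of all libraries together. Tools were Python 3.11.15, R 4.3.3, limma 3.58.1, DESeq2 1.42.0 and edgeR 4.0.16, and the tests were tested on simulated data. Names came from the study's supplementary table, which pairs 151 identifiers of the 24616 in the files with a symbol. Those named in the text are the called genes with a symbol (up to 15 in each direction), the 6 of smallest p in a direction without such a call, and the 4 of smallest p in each gene list. Other members of the immediate early and fatty acid lists (NFKBIA, NR4A3, JUNB, EGR1, CCN1, ZFP36 and ACSM1) and HBD were named after their values were seen. Alternatives were edgeR, DESeq2, other filters, scalings, covariates and samples, and those using the TMM factor were chosen after seeing the data. The libraries, gene lists and tests were chosen with earlier results of these data known.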

Additional observations from a re-analysis of the deposited data

Results flagged for a closer look

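The library of steer 571, not used in any comparison, held 164200 CPM over 11 liver plasma protein genes, against at most 757.9 CPM in the libraries used. Within the 4 groups of phase and RFI class, 17 of 244 gene and group combinations held a library far from the others of its group, where chance alone flags about 1 in 20.

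Among the called genes, steer 1843 had 9.34 CPM of KLF11 in ZG, H-RFI, where the next lowest library had 18.9. Steer 856 had 4.36 CPM of PLIN5 in H1, H-RFI (next 8.16), and steer 1078 had 13.6 CPM of ATG101 in the same group (next 23.2). Steer 1879 had 32.8 CPM of MIDN in ZG, H-RFI (next 15.4), and steer 1846 had 23.1 CPM of ANGPTL2 in H1, L-RFI (next 12.7).

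Steer 318, in ZG and L-RFI, stood above its group in the leukocyte genes PTPRC, with 19.7 CPM (next 1.07), and LCP1, with 7.13 CPM (next 2.22). It also did in the interferon response gene IFIT3, with 2.23 CPM (next 1.10), and in MYH4, with 46.2 CPM (next 6.98). In H1, L-RFI, steer 1831 had 8.496 CPM of PLEK (next 2.95), steer 1797 had 7.47 CPM of LCP1 (next 2.57) and steer 1101 had 183.9 CPM of MYH4 (next 6.65).

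Steer 1320, in H1 and H-RFI, had 19.9 CPM of TNNT2 (next 3.00) and 5.43 CPM of FOXO1 (next 2.88). In ZG, steer 1816 had 4.41 CPM of FOXO1 (H-RFI, next 2.95), steer 1831 had 1.73 CPM of MYH8 (L-RFI, next lowest 20.3) and steer 310 had 3.31 CPM of CP (L-RFI, next 1.37).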

How the results depend on the processing

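The 213 called genes became 412 with edgeR's quasi-likelihood test (185 shared with the 213), 504 with DESeq2 (189 shared), 676 with sample quality weights (163 shared), 88 at an adjusted p-value under 0.05 and 438 without the fold change limit. They became 21 with steer 571 kept, 56 with libraries under 1000000 counts kept, and 48 when repeated steers lost their H1 library (249 when they lost their ZG library). The paired steers alone, H-RFI alone and L-RFI alone each gave 0, in fits of fewer samples. Chosen after seeing the data, leaving out the 5 libraries with a TMM factor under 0.7 gave 48, or 60 with edgeR. Without the steer as replicate block 279 genes were called, 209 of them among the 213. The share of calls higher in ZG was 53.5%, and 70.1% with edgeR, 57.1% with DESeq2 and 21.9% with quality weights. Leaving out each library in turn gave 102 to 641 calls. Counts fell by more than 1.5 times without the ZG library of steer 1484, 1843, 545, 1492 or 1834 (102, 102, 112, 119 and 130) or the H1 library of steer 581, 856, 364, 1816 or 1078 (108, 125, 128, 130 and 136), and rose as much without the H1 library of steer 555 or 854 (359 and 395) or the ZG library of steer 310, 1879 or 318 (417, 597 and 641). The causes were not tested. Both tests of a difference gave 0 calls in every alternative run.

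KLF11, NR4A1, PLIN5, CSRNP1, NR4A2, FOSB, JUN and FOS were called in 35 of 35 fits that left out a library, ATG101, BTG2 and MIDN in 34 and ANGPTL2 in 13. When repeated steers lost their H1 library 9 of the 12 were no longer called, and KLF11, NR4A1 and PLIN5 still were. None of these 12 genes changed sign in any alternative run. With the TMM factor as a covariate RESF1 was 0.11, CTSS 0.061 and CASP4 0.022, above 0 where the main differences were below. Of the 37 named genes with an unadjusted p-value over 0.05, 32 had the other sign in at least 1 alternative. Depth limits genes near 1 CPM most, since 3 counts were 0.662 CPM in the smallest library before TMM scaling, and more after it.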
